A study of Arabidopsis thaliana with 12 samples.

Results

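The response of non-stressed cat2-2 seedlings of Arabidopsis thaliana to pakerine was followed across the transcriptome. All genes for which the deposited table gives a mean in the Pakerine and the DMSO group were taken as members, which made 21882 of 21882 genes and 6 of the 12 libraries of the series. The cat2-2 line is a mutant of CAT2, the main leaf catalase, and both groups carried it, so that wild-type plants take no part in the comparison. The seedlings grew in liquid medium under 16 h of light per day, received medium with 10 µM pakerine or an equal amount of the solvent DMSO on day 7, and were harvested 4 days later as 3 biological replicates per group. The remaining libraries, Stress and Stress + Pakerine, came from the same mutant after 2 further days in sealed plates with 24 h of light. Sample titles and treatment entries contradict each other for 6 of the 12 libraries, including all 3 of Pakerine. Groups follow the titles and the headings of the table.

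Pakerine is a sulfonamide found in a screen for compounds that keep cat2-2 seedlings alive under photorespiratory stress, and without that stress the comparison shows what the compound does by itself. Peroxisomes carry out fatty acid β-oxidation, photorespiratory glycolate oxidation and the last steps of jasmonic acid (JA) synthesis, and they also turn the storage auxin indole-3-butyric acid into active auxin. Auxin is perceived by TIR1/AFB receptors that mark Aux/IAA repressors for degradation, which frees auxin response factors (ARFs) to induce early genes of the GH3, Aux/IAA and SAUR families. In roots auxin starts lateral root founder cells and promotes root hair growth.

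The deposited values are the authors' group means over 3 libraries in CPM, the reads of a gene scaled to a common library total. Because these means carry 8 to 9 decimals, the whole reads of each library could be solved from them for 12039 of the 21882 genes, and the single-library values below come from that solution. The library sizes recovered in the same way ranged from 28472236 to 30512850 counted reads in DMSO and from 29012117 to 33512708 in Pakerine. The libraries are called a, b and c within each group, since they cannot be tied to the replicate numbers of the labels. A gene was called higher or lower when the adjusted p of limma (Benjamini-Hochberg over 12039 genes) was at most 0.05, and log2 fold changes are on the scale log2(CPM + 0.5). Tested genes reached a mean of at most 33.3 CPM. For more abundant genes the authors' means are given with their log2 ratio on the same scale and no test. Library b of DMSO held the lowest values of many root genes, and counts below that change much without it are also given without it.

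Pakerine changed the level of 1849 of the 12039 tested genes (15.4%). Of these, 1531 were higher with pakerine (12.7%) and 318 were lower (2.64%). Counts of list members below are to be read against these shares. With a log2 fold change of at least 1 and an adjusted p of at most 0.01, 416 genes were higher (3.46%) and 26 lower (0.216%). The split depended on the scaling between libraries. With scaling factors between groups computed over all genes of the table, as used here, 82.8% of the called genes were higher. With factors computed over the solved genes alone 1223 were higher and 622 lower, which is 66.3% higher. The factors over all genes were chosen after both had been seen, because the authors scaled over all genes. Without DMSO library b, 1230 genes were called and 190 were lower, and without Pakerine library a or b 188 and 194 were lower. The 416 genes at the stricter threshold became 200 without DMSO library b and 224 without Pakerine library b. The median log2 fold change over all tested genes was 0.02. In 19.9% of the tested genes all 3 Pakerine libraries lay above all 3 DMSO libraries, and in 11.1% all lay below. Among the untested genes, 54 had a log2 ratio of means of at least 1 and 10 had one of at most -1.

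**Figure D1:**
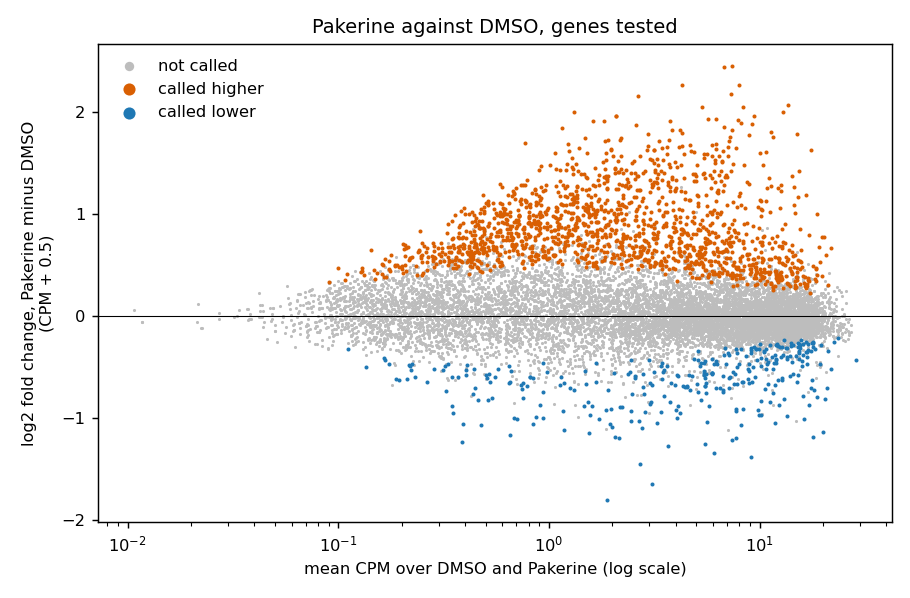
The plot of fold change against level shows each of the 12039 tested genes by its mean CPM over both groups (log scale) and its log2 fold change, Pakerine minus DMSO. The 1531 genes called higher (orange) reach further from 0 than the 318 called lower (blue), and grey points are genes that were not called.

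Several early auxin genes stood at higher levels with pakerine, among them genes of GH3 enzymes, which conjugate auxin to amino acids, and of Aux/IAA repressors. GH3.3 (AT2G23170) had 6.85, 5.54 and 9.20 CPM in the DMSO libraries, and the authors' means were 7.2 CPM in DMSO and 45.7 CPM in Pakerine. Their log2 ratio of 2.58 was not tested, because the Pakerine libraries could not be solved. GH3.2 had means of 4.71 and 18.8 CPM (log2 ratio 1.89), and the more abundant GH3.5, GH3.6 and GH3.17 had ratios of 0.69, 0.75 and 0.64, also untested. Among the 4 tested genes of auxin conjugation and oxidation 1 was higher, GH3.1 (AT2G14960). It had 0.361, 0.0656 and 0.140 CPM in DMSO and 0.627, 0.591 and 0.586 CPM in Pakerine, so that the groups did not overlap. Its log2 fold change was 0.70 ± 0.205 (SE, adjusted p = 0.031). The call was lost without any single library other than DMSO library a, with adjusted p up to 0.13 without DMSO library b. The oxidases DAO1 and DAO2, which inactivate auxin by oxidation, had log2 fold changes of -0.16 and 0.11 and were not called.

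Of the 16 tested Aux/IAA genes, 5 were higher and none was lower, with a median log2 fold change of 0.32 against 0.02 over all tested genes. IAA19 (AT3G15540) had 2.1, 1.87 and 2.04 CPM in DMSO and 7.79, 5.97 and 5.69 CPM in Pakerine. All Pakerine libraries lay well above the narrow DMSO range, at a log2 fold change of 1.48 ± 0.146 (SE, adjusted p = 0.00011). IAA1 (AT4G14560) rose from 8.62, 6.07 and 8.71 CPM to 19.4, 24.0 and 18.8 CPM, by a log2 fold change of 1.38 ± 0.212 (SE, adjusted p = 0.00077). IAA14 (AT4G14550, known as SOLITARY-ROOT for its block of lateral roots when stabilized) had 5.90, 4.66 and 5.37 CPM in DMSO and 11.2, 10.2 and 8.20 CPM in Pakerine. Its log2 fold change was 0.84 ± 0.127 (SE, adjusted p = 0.00070). IAA31 and IAA6 also rose, by 0.89 and 0.53 on the log2 scale, IAA6 with an adjusted p of 0.039 that reached 0.16 among the alternative analyses. IAA17, which was not tested, had means of 16.8 CPM in DMSO and 47.8 CPM in Pakerine. The response was uneven within the family, since IAA20 had a log2 fold change of -0.05, IAA34 one of -0.03, and the abundant IAA4, IAA8, IAA18 and IAA26 had log2 ratios between -0.11 and 0.19.

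Because early auxin genes are bound by ARFs at the sequence TGTCTC, the 250 bases before the annotated start of the genes (RefSeq, TAIR10.1) were searched for it on both strands. It occurred in 10.9% of 27443 promoters, in 9 of 28 of the Aux/IAA genes of the table and in 3 of 9 of the auxin conjugation genes. The promoters of GH3.3 (chr2:9866563-9866812, minus strand) and of IAA19 (chr3:5263751-5264000, plus strand) are printed here since these genes had the widest change in their lists, with TGTCTC in capitals. IAA19 held 3 copies, IAA1 held 1, and IAA14 and IAA31 held none in this window.
GH3.3: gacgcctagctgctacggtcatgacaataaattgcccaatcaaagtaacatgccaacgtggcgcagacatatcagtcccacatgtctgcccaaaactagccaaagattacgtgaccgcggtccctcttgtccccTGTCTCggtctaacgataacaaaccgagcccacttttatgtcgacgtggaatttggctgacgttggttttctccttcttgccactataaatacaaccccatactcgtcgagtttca
IAA19: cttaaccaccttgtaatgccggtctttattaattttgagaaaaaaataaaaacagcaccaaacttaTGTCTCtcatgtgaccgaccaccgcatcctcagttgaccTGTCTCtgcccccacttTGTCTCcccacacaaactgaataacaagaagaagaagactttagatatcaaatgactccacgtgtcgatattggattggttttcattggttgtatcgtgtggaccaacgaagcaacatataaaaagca

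No change was called among genes of auxin perception. Both tested members, the receptor gene AFB4 and the ARF gene ARF5, had log2 fold changes of 0.00 and -0.23 and were not called, and the 15 untested ones, among them TIR1, ARF7 and ARF19, had log2 ratios between -0.24 and 0.29. Of 6 tested transport genes 2 were higher, the efflux carrier gene PIN2 and the influx carrier gene LAX2. PIN2 (AT5G57090), which is active in root epidermis and lateral root cap, had 5.60, 2.82 and 6.99 CPM in DMSO and 13.8, 13.9 and 10.1 CPM in Pakerine. The groups did not overlap, and the log2 fold change was 1.3 ± 0.223 (SE, adjusted p = 0.0015). The LAX2 groups overlapped (log2 fold change 0.52, adjusted p = 0.041), and the call was lost without any of DMSO library a, b or c or Pakerine library a or b, with adjusted p up to 0.19. LAX3, an influx carrier gene of lateral root emergence, had means of 17.5 and 32.4 CPM and was not tested.

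Of 10 tested auxin synthesis genes 2 were higher, YUC3 and YUC5, both flavin monooxygenases of the indole-3-pyruvate route. Over all tested genes 12.7% were higher, and the difference from that share was not tested. The median log2 fold change was 0.15 in this list and 0.02 over all tested genes. YUC3 (AT1G04610) had 0.754, 0.689 and 0.667 CPM in DMSO and 2.27, 1.96 and 1.83 CPM in Pakerine. This separation gave a log2 fold change of 1.07 ± 0.137 (SE, adjusted p = 0.00027). YUC5 had a log2 fold change of 0.67 (adjusted p = 0.048), and its call was lost without any one of 5 of the 6 libraries, with adjusted p up to 0.21. The other 8 were not called, with YUC1 at -0.48 and YUC8 at 0.45.

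Of 14 tested genes of lateral root formation 6 were higher, none was lower and the median was 0.36. Among the 8 with at least 1 CPM 2 were higher and the median was 0.06. The transcription factors LBD16, LBD18 and LBD29 act directly downstream of ARF7 and ARF19 in founder cells. LBD29 (AT3G58190) had 0.131, 0 and 0.176 CPM in DMSO and 1.52, 1.49 and 1.31 CPM in Pakerine, so that it was close to absent in all DMSO libraries. Its log2 fold change was 1.70 ± 0.150 (SE, adjusted p = 4.4e-05). LBD16 (AT2G42430) had 0.426, 0.0984 and 0.597 CPM in DMSO and 1.76, 1.46 and 1.48 CPM in Pakerine, a log2 fold change of 1.29 ± 0.191 (SE, adjusted p = 0.00062). LBD18 rose by 0.84 on the same scale (adjusted p = 0.00088). MAKR4 (AT2G39370), which acts in founder cell priming, had 0.655, 0.164 and 0.351 CPM in DMSO and 2.36, 3.86 and 2.27 CPM in Pakerine. No library of either group came near the other group, and the log2 fold change was 1.91 ± 0.223 (SE, adjusted p = 0.00019).

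The expansin genes EXPA14 and EXPA17, whose products loosen cell walls, rose by log2 fold changes of 0.89 and 1.03. AIR1 (AT4G12550), which auxin induces in roots, had 13.8, 4.30 and 6.01 CPM in DMSO and a mean of 89.3 CPM in Pakerine against 8.02 CPM in DMSO. Its log2 ratio of 3.4 was the highest of any list member, but it was not tested, and 24.8% of its 75-base stretches occur in other genes. The 8 lateral root genes that were not called had log2 fold changes between -0.30 (PLT7) and 0.45 (IDA).

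Every tested root hair gene was higher with pakerine. These were 9 genes with a median log2 fold change of 1.52, and 8 or 9 of them were called when any single library was left out. The basic helix-loop-helix factors RHD6, RSL2 and RSL4 direct hair initiation and growth. RSL2 (AT4G33880) had 0.590, 0.394 and 0.421 CPM in DMSO and 2.39, 1.68 and 2.34 CPM in Pakerine, for a log2 fold change of 1.44 ± 0.257 (SE, adjusted p = 0.0019). RHD6 rose by 0.98 and RSL4 by 1.25 on this scale, and the adjusted p of RHD6 (0.0086) reached 0.051 in an alternative analysis. RBOHC (AT5G51060), the NADPH oxidase of the hair tip, had 3.21, 1.94 and 4.67 CPM in DMSO and 8.59, 8.00 and 13.5 CPM in Pakerine, a log2 fold change of 1.52 ± 0.25 (SE, adjusted p = 0.0012).

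Wall proteins of the hair moved with them. LRX1 (AT1G12040), a leucine-rich repeat extensin, had 6.75, 2.43 and 6.25 CPM in DMSO and 15.9, 19.9 and 30.7 CPM in Pakerine. Every Pakerine library was above every DMSO library, and the log2 fold change was 2.07 ± 0.356 (SE, adjusted p = 0.0015). LRX2 rose by 1.62, EXPA7 by 1.65, EXPA18 by 1.86 and COBL9, a glycosylphosphatidylinositol-anchored protein of hair growth, by 1.46 on the log2 scale. The proline-rich protein genes PRP1 and PRP3 were not tested and had means of 9.42 and 14.8 CPM in DMSO against 31.0 and 53.6 CPM in Pakerine. Summed over the 9 tested genes, the DMSO libraries held 24.0, 12 and 26.7 CPM and the Pakerine libraries 57.9, 69.6 and 101 CPM, with DMSO library b the lowest.

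The root hair element, a degenerate promoter sequence shared by genes of hair-forming cells, was searched in the same 250 bases on both strands. It occurred in 0.754% of the 27443 promoters and in 5 of the 11 root hair genes, EXPA7, EXPA18, PRP1, PRP3 and LRX1. The promoters of EXPA7 (chr1:4276255-4276504), EXPA18 (chr1:23331313-23331562), LRX1 (chr1:4069742-4069991) and PRP3 (chr3:23182472-23182721), all on the plus strand, are given to show this shared stretch in capitals. In LRX1 and PRP3 it lies on the other strand.
EXPA7: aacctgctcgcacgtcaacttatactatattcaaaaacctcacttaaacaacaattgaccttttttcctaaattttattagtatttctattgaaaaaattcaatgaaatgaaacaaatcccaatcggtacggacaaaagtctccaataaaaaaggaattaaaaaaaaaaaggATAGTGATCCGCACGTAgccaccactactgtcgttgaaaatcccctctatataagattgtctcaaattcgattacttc
EXPA18: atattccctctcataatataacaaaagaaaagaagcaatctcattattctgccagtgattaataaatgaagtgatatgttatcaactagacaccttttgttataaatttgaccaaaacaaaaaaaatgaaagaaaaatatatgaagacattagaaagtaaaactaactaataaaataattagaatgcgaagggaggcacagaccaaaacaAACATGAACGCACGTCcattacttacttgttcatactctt
LRX1: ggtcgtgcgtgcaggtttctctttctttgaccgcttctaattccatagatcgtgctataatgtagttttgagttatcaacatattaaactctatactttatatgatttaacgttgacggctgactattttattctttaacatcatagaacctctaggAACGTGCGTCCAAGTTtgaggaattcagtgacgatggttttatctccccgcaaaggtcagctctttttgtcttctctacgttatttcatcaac
PRP3: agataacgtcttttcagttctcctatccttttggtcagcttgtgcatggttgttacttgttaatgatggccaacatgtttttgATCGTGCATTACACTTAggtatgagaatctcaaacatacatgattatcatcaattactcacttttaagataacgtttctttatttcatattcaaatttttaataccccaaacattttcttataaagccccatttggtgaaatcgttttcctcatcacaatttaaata

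The labels give leaf as the tissue, while the 14 tested markers of root cell types had reads in all libraries, except PLT2 with 0 reads in DMSO library b. Of these root cell markers 8 were higher with pakerine, 1 was lower and the median log2 fold change was 0.87, but among the 9 with at least 1 CPM 2 were higher, 1 was lower and the median was 0.45. The lists overlap, since of the 8 COBL9 is also counted as a root hair gene, CASP1 and MYB36 as Casparian strip genes and SULTR1;1 as a sulfur gene. SMB (AT1G79580), a transcription factor of the root cap, had 0.426, 0.0984 and 0.246 CPM in DMSO and 1.64, 1.65 and 1.41 CPM in Pakerine, a log2 fold change of 1.47 ± 0.183 (SE, adjusted p = 0.00023). BRN1, a root cap factor related to SMB, rose by 1.11, and the stem cell factors PLT1 and PLT2 by 1.11 and 0.91 on that scale, PLT2 with an adjusted p of 0.0096 that reached 0.054 among the alternatives. GL2 (AT1G79840), which marks hairless cells in roots and is also active in leaf trichomes, fell, from 10.5, 9.81 and 13.8 CPM to 7.19, 8.34 and 5.48 CPM (log2 fold change -0.65 ± 0.145 SE, adjusted p = 0.0086). WOX5, which marks the quiescent centre, had a log2 fold change of -0.66 that was not called, and SHR, a stele factor, one of 0.16. Without DMSO library b, 5 root cell markers were higher and 1 lower.

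Endodermal barrier genes followed the same direction. Of the 9 genes of the Casparian strip, the lignin belt that seals the endodermis, 7 were higher with a median of 0.78. CASP1 (AT2G36100), a membrane scaffold of the strip, had 6.78, 2.89 and 4.88 CPM in DMSO and 11.9, 11.8 and 9.89 CPM in Pakerine, a log2 fold change of 1.21 ± 0.257 (SE, adjusted p = 0.0053). PER64 (AT5G42180), its lignin peroxidase, rose from 5.05, 2.46 and 3.93 CPM to 10.5, 10.6 and 9.34 CPM, by 1.36 ± 0.204 (SE, log2, adjusted p = 0.00066). The groups did not overlap in either gene. The receptor kinase gene SGN3 rose by 0.78 and MYB36, the regulator of the strip, by 0.57 (adjusted p = 0.048, and up to 0.20 among the alternatives).

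Of 13 tested suberin genes 7 were higher, none lower and the median was 0.63. CYP86A1 (AT5G58860), the ω-hydroxylase of root suberin, had 2.06, 0.853 and 1.93 CPM in DMSO and 5.82, 5.41 and 4.86 CPM in Pakerine. The Pakerine libraries lay together above all DMSO libraries, at a log2 fold change of 1.53 ± 0.252 (SE, adjusted p = 0.0012). The fatty acyl reductase genes FAR4 and FAR5 rose by 1.35 and 1.04 and CYP86B1 by 0.85. MYB9, MYB41 and FAR1 had log2 fold changes of 0.04, -0.09 and -0.02 and were not called. Without DMSO library b, 5 Casparian strip and 4 suberin genes were higher.

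**Figure D2:**
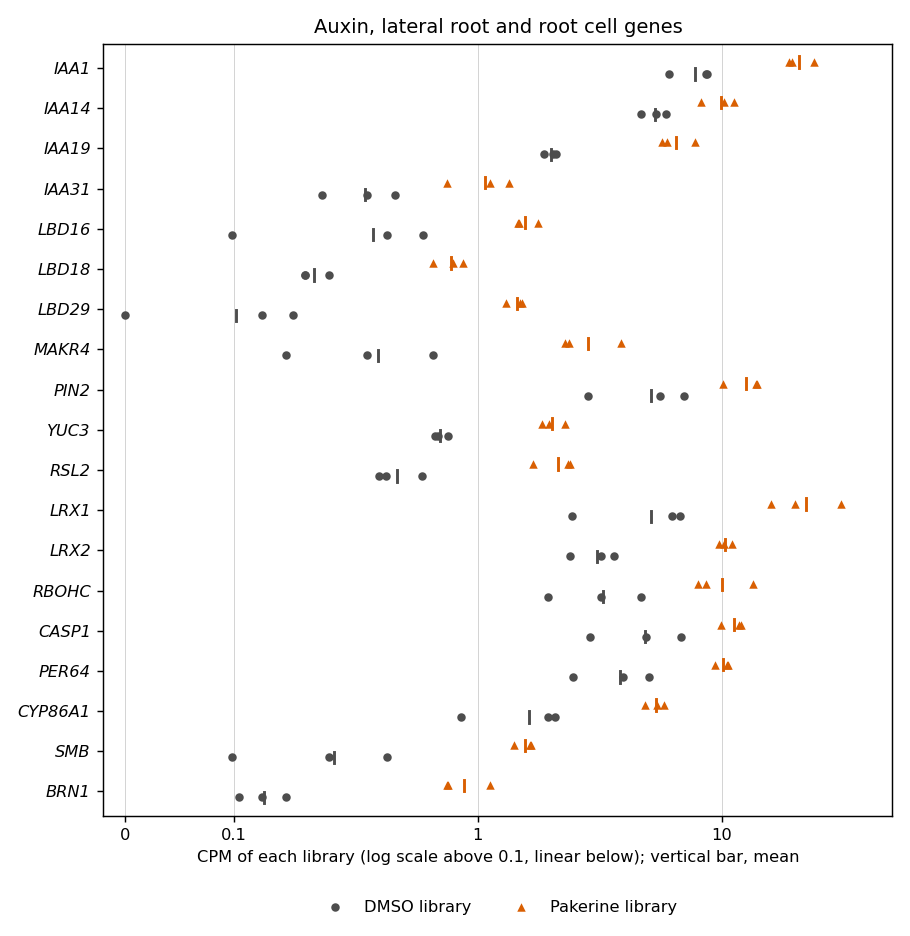
The plot of auxin, lateral root and root cell genes gives the CPM of each DMSO library (grey circles) and each Pakerine library (orange triangles) on an axis that is logarithmic above 0.1, with vertical bars at the group means. The 19 genes were picked among those called higher, and the Pakerine libraries lie above the DMSO libraries in all of them. Over all tested genes this was so in 19.9%. The lowest DMSO value is often library b, as in LRX1 (2.43 CPM) and CASP1 (2.89 CPM).

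Summed over the tested members, the root cell markers held 47.7, 35.2 and 49.5 CPM in DMSO and 62.4, 68.2 and 59.3 CPM in Pakerine, and the Casparian strip genes held 30.2, 17.9 and 28.1 against 53.5, 52.0 and 48.7 CPM. Most reads of the root cell markers lay in the 4 untested ones, with log2 ratios between -0.03 and 0.73 and a median of 0.15. With these, the authors' means summed to 1668 CPM in DMSO and 2001 CPM in Pakerine over all 18 root cell markers. The 4 tested leaf cell markers held 49.4, 49.1 and 46.5 CPM in DMSO and 39.1, 44.5 and 41.3 CPM in Pakerine. Of these, 2 were lower, the stomatal lineage receptor gene TMM (log2 fold change -0.47, adjusted p = 0.0031) and the trichome factor gene GL1 (log2 fold change -0.66, adjusted p = 0.026, lost without any of 5 libraries with adjusted p up to 0.094). Abundant leaf genes had untested means of 8277 and 9426 CPM (RBCS1A, a Rubisco small subunit), 3320 and 4298 CPM (RCA, Rubisco activase) and 1353 and 2167 CPM (CA1, carbonic anhydrase) in DMSO and Pakerine. Of all 17 leaf cell markers, by contrast, 4 had a positive ratio of the authors' means, the median ratio was -0.15 (log2) and LHCB1.1, of the light-harvesting antenna, had means of 126 and 53.6 CPM. In RNA from mixed tissue, more cells of a type and more RNA per cell cannot be told apart, and the share of root material per library was not tested.

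The 12 genes with the highest log2 fold changes among those at an adjusted p of at most 0.01 and at least 1 CPM included lectin, peroxidase and cell wall genes. MLP-300B (AT3G16440), annotated as a myrosinase-binding protein, had 3.61, 0.853 and 1.93 CPM in DMSO and 12.9, 14.6 and 10.3 CPM in Pakerine, a log2 fold change of 2.46 ± 0.296 (SE, adjusted p = 0.00021). PR-1-LIKE (AT2G19990), of the family of pathogenesis-related protein 1, had 2.39, 1.80 and 1.19 CPM against 10.4, 13.9 and 10.9 CPM, a log2 fold change of 2.45 ± 0.188 (SE, adjusted p = 1e-05). The class III peroxidase genes AT2G18980 and AT2G38390 rose by 2.27 and 2.05, the cellulose synthase-like gene CSLB01 by 2.16 and the endoglucanase gene GH9C1 by 2.00. The polygalacturonase gene PGAZAT (AT2G41850), of cell separation, had 0.492, 0.0328 and 0.211 CPM in DMSO and 2.30, 2.37 and 2.52 CPM in Pakerine, a log2 fold change of 2.00 ± 0.241 (SE, adjusted p = 0.00021). The others were LRX1, described above, the late embryogenesis abundant protein gene AT5G60530 (2.27), the β-glucosidase gene BGLU34 (2.06) and the mannose-binding lectin genes AT1G52070 (2.18) and AT2G25980 (1.97). In all 12 the groups did not overlap, which largely follows from their choice by fold change and adjusted p. Over all tested genes, 19.9% had all Pakerine libraries above all DMSO libraries. BGLU34 shares at least 10% of its 75-base stretches with another gene.

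**Figure D3:**
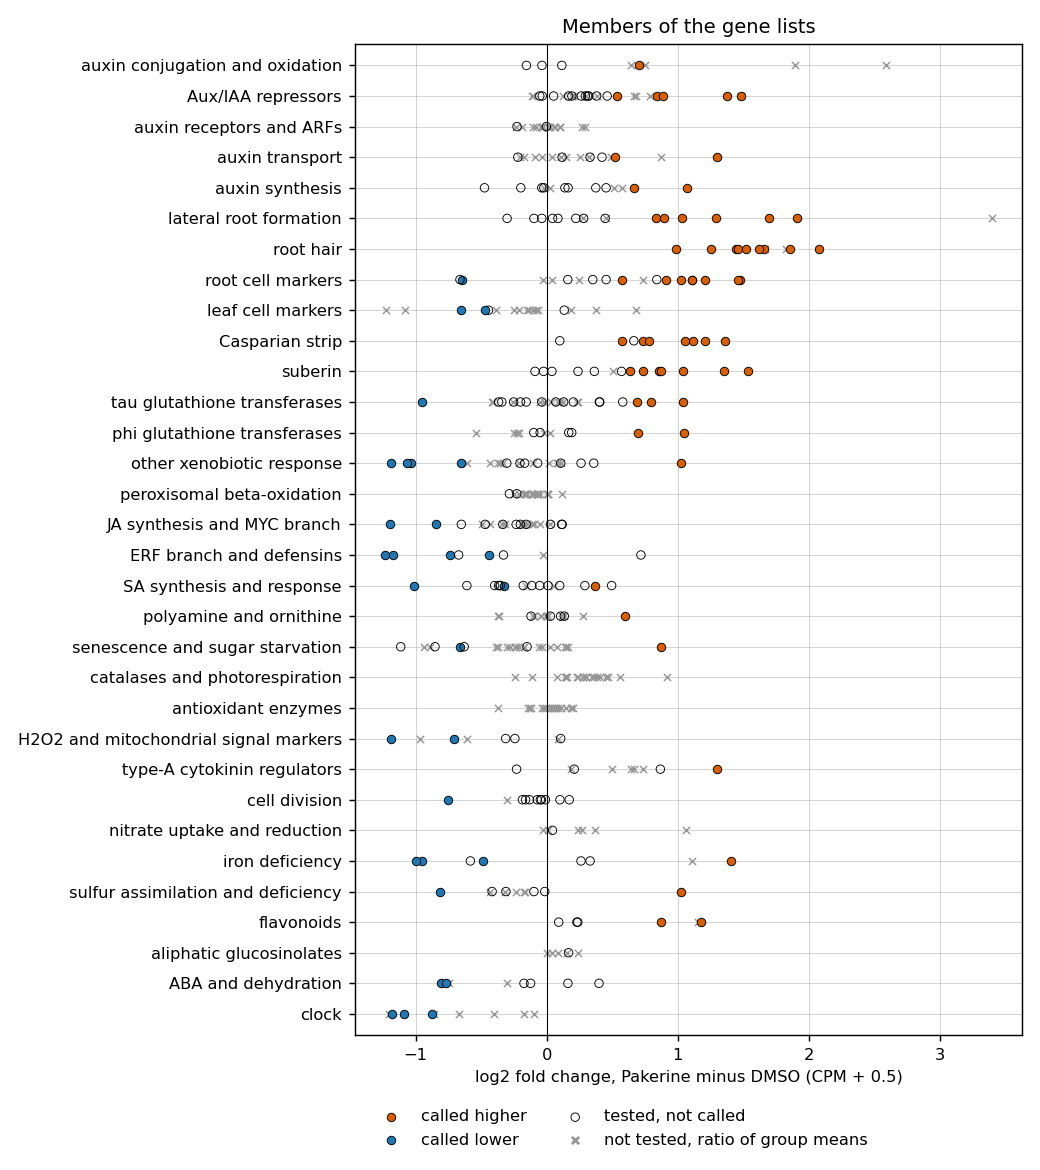
The plot of list members shows every gene of the 32 lists by its log2 fold change, Pakerine minus DMSO, on the scale log2(CPM + 0.5). Filled circles are called higher (orange) or lower (blue), open circles were tested and not called, and crosses are untested ratios of the authors' means. The 9 tested root hair genes all lie to the right of 0 and the 3 tested clock genes all to the left.

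Genes of the circadian clock were lower with pakerine. All 3 tested clock genes fell, with a median of -1.09, and all 3 remained called when any single library was left out. CCA1 (AT2G46830) and LHY (AT1G01060) encode the paired MYB repressors that peak around dawn. CCA1 had 2.56, 3.51 and 2.60 CPM in DMSO and 1.4, 0.778 and 1.07 CPM in Pakerine, a log2 fold change of -1.09 ± 0.198 (SE, adjusted p = 0.0039). LHY had 2.72, 4.13 and 2.32 CPM against 1.16, 1.28 and 0.689 CPM, and fell by 1.18 on the log2 scale (SE 0.225, adjusted p = 0.0052). PRR9 (AT2G46790), a pseudo-response regulator of the morning, went from 0.918, 1.51 and 1.58 CPM to 0.477, 0.405 and 0.551 CPM, a log2 fold change of -0.88 ± 0.176 (SE, adjusted p = 0.0036). None of the groups overlapped, although PRR9 shares at least 10% of its 75-base stretches with another gene.

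The other 6 clock genes were too abundant to be tested and all had negative ratios. PRR7 had means of 119 CPM in DMSO and 51.3 CPM in Pakerine (log2 ratio -1.20), GI had 61.5 and 33.7 CPM (-0.86) and PRR5 had 52.4 and 32.7 CPM (-0.67). The evening genes LUX, TOC1 and ELF4 had ratios of -0.40, -0.18 and -0.10. The hour of harvest is not given in the sources used here, and its part in these values was not tested. The evening element, AAATATCT, lies within 250 bases before the start of PRR5, TOC1, ELF4 and LUX and of 4.79% of all promoters. AT3G54500, one of the 12 lowest genes, fell from 24.8, 31.0 and 27.5 CPM to 12.5, 11.7 and 12.3 CPM (log2 fold change -1.14 ± 0.096 SE, adjusted p = 0.00014).

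Defence genes at the JA and ethylene branch were lower as well. Of 7 tested genes of the ERF branch and the defensins 4 fell, none rose and the median was -0.67, and 2 or 3 were called lower when any single library was left out (2 without Pakerine library b or c). PDF1.2 (AT5G44420), a plant defensin and the usual marker of this branch, had 19, 29 and 19 reads in the DMSO libraries and 0, 1 and 1 reads in the Pakerine libraries. Over the group, 67 reads against 2 give a ratio of 35.4 in CPM, with an exact 95% interval of 9.44 to 298.7 that covers counting error only. Its log2 fold change was -1.23 ± 0.194 (SE, adjusted p = 0.00087). PDF1.3 (AT2G26010) had 1.31, 1.48 and 0.562 CPM in DMSO and 0.239, 0.280 and 0.0689 CPM in Pakerine, a log2 fold change of -1.17 ± 0.239 (SE, adjusted p = 0.0040). The calls of PDF1.2b (-0.74, adjusted p = 0.040) and of the transcription factor gene ORA59 (-0.44, adjusted p = 0.033) were lost when single libraries were left out, with adjusted p up to 0.19 for PDF1.2b (without DMSO library b) and 0.12 for ORA59 (without DMSO library c). PDF1.2, PDF1.2b and PDF1.3 share 0 exact stretches of 75 bases with other genes.

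ORA59 and its relatives bind the GCC box, GCCGCC, which was found in 1.87% of the 27443 promoters and in 3 of 8 genes of this list, ORA59, PDF1.2 and PDF1.2b. The promoter of PDF1.2 (chr5:17907639-17907888, minus strand), the tested list member with the widest change, is shown with that box in capitals.
PDF1.2: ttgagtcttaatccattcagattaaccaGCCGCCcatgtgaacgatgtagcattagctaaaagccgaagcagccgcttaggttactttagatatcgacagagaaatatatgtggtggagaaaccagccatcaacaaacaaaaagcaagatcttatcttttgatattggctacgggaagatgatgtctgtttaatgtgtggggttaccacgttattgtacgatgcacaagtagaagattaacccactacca

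Among genes of JA synthesis and of the MYC branch of JA signalling, taken as 1 list, 2 of 11 tested were lower, none was higher and the median was -0.23. CORI3 (AT4G23600), a JA-induced cystine lyase, had 9.31, 10.1 and 13.6 CPM in DMSO and 4.09, 4.85 and 4.34 CPM in Pakerine, a log2 fold change of -1.19 ± 0.139 (SE, adjusted p = 0.00046). VSP2, a vegetative storage protein, fell by 0.84 on the log2 scale (adjusted p = 0.041), and was not called without any of 5 libraries, with adjusted p up to 0.17 without DMSO library c. The JAZ repressor genes JAZ1, JAZ3, JAZ5, JAZ7, JAZ8 and JAZ10 had log2 fold changes between -0.65 and 0.11 and none was called. The JA synthesis genes LOX2, AOS, AOC1, AOC2 and OPR3 were untested, with log2 ratios between -0.49 and -0.09.

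Genes of salicylic acid (SA) synthesis and response had 1 higher and 2 lower of 15 tested and a median of -0.18, which was 0.09 without DMSO library c. WRKY70 (AT3G56400), a regulator of SA responses, had 14.4, 18.1 and 34.4 CPM in DMSO and 10.3, 11 and 8.82 CPM in Pakerine. DMSO library c stood far above its group here, and the log2 fold change was -1.01 ± 0.233 (SE, adjusted p = 0.013). PR1, the marker of SA signalling, had 0.0655, 0.262 and 0.421 CPM against 0.298, 0.249 and 0.172 CPM, and its groups overlapped. PAD4 was higher (log2 fold change 0.37, adjusted p = 0.019) and CBP60G lower (log2 fold change -0.33, adjusted p = 0.042). Both calls were lost when single libraries were left out, with adjusted p up to 0.077 without Pakerine library c for PAD4 and 0.14 without DMSO library c for CBP60G.

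No H2O2 marker was called higher, and genes that respond to foreign compounds moved in both directions. Of 5 tested H2O2 and mitochondrial signal markers 2 were lower and none higher, with a median of -0.31. ZAT12 (AT5G59820), a zinc finger factor of oxidative stress, had 8.03, 8.66 and 6.81 CPM in DMSO and 3.46, 5.32 and 5.07 CPM in Pakerine, a log2 fold change of -0.70 ± 0.155 (SE, adjusted p = 0.0079). UGT74E2 (AT1G05680), a glucosyltransferase that acts on indole-3-butyric acid, had 31.3, 27.6 and 16.5 CPM against 14.6, 6.94 and 10.7 CPM, a log2 fold change of -1.19 ± 0.261 (SE, adjusted p = 0.011). The mitochondrial markers UPOX and AOX1A were untested, with means of 29.8 and 62.7 CPM in DMSO and 15 and 41.0 CPM in Pakerine. NAC032 had a log2 fold change of 0.11, and BAP1 one of -0.31.

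Glutathione transferases join glutathione to reactive and foreign compounds. Of 16 tested tau members 3 were higher and 1 was lower (median 0.10), and of 6 tested phi members 2 were higher (median 0.18). Over all tested genes 12.7% were higher and 2.64% lower, and the difference of these small lists from those shares was not tested. GSTU8 (AT3G09270) had 11.7, 13.4 and 12.4 CPM in DMSO and 23.0, 21.0 and 21.5 CPM in Pakerine, a log2 fold change of 0.80 ± 0.0848 (SE, adjusted p = 0.00032). GSTU14, GSTU26 and GSTF13 rose by 1.04, 0.69 and 1.05. GSTF4 rose by 0.70 (adjusted p = 0.015, and 0.069 without Pakerine library b), but 74.9% of the gene lies over a non-coding RNA gene whose reads could not be told apart from it. GSTU4 (AT2G29460) went the other way, from 5.74, 5.41 and 5.94 CPM to 3.04, 2.37 and 2.65 CPM, a log2 fold change of -0.95 ± 0.133 (SE, adjusted p = 0.0012). The abundant GSTU19, GSTF8 and GSTF2 had untested log2 ratios of 0.24, -0.23 and -0.21.

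Among 12 other tested genes of xenobiotic response 4 were lower and 1 was higher. UGT74E2, counted above among the H2O2 markers, is also 1 of the lower genes here. The transporter genes DTX3 (AT2G04050) and DTX4, of the family of multidrug and toxic compound extrusion, fell by 1.04 and 1.07 on the log2 scale. DTX3 had 10.6, 5.68 and 7.02 CPM in DMSO and 2.51, 3.14 and 4.79 CPM in Pakerine (SE 0.226, adjusted p = 0.0075). The cytochrome P450 gene CYP81D8 fell by 0.65, and CYP710A1, which makes stigmasterol, rose by 1.02.

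**Figure D4:**
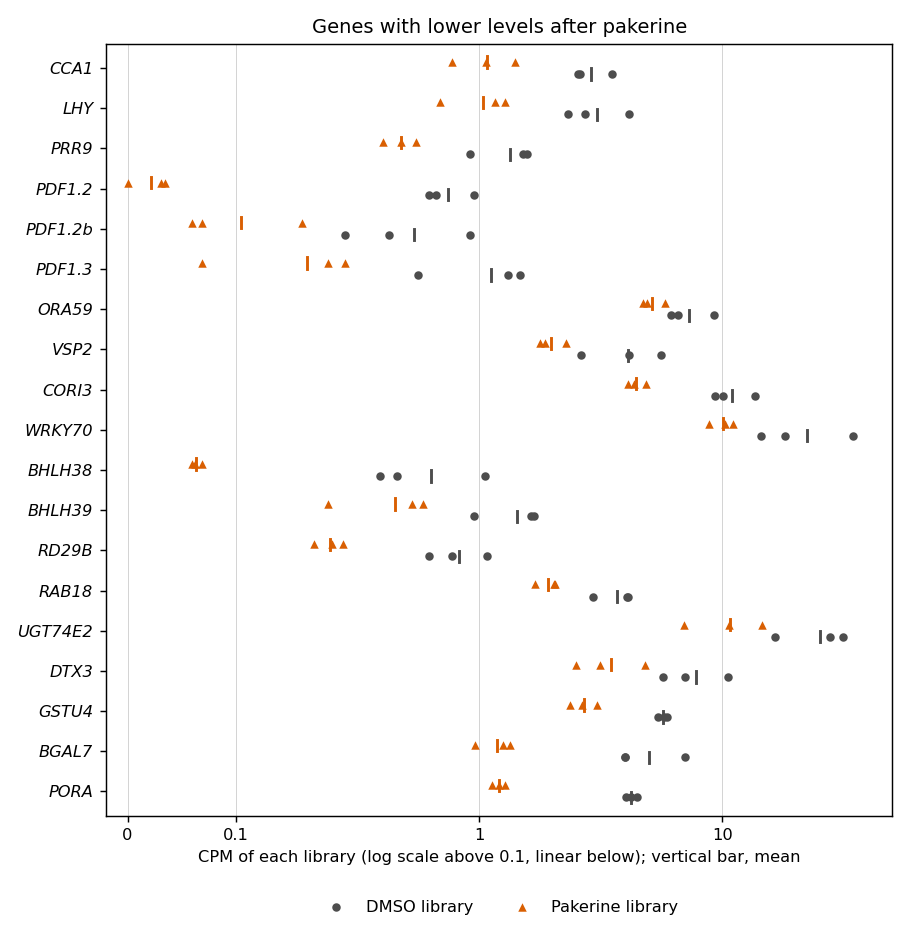
The plot of genes called lower gives the CPM of each DMSO library (grey circles) and each Pakerine library (orange triangles) on an axis that is logarithmic above 0.1, with vertical bars at the group means. The 19 genes were picked among those called lower, and the Pakerine libraries lie below the DMSO libraries in all of them. Over all tested genes this was so in 11.1%. PDF1.2 reaches 0 reads in Pakerine library a.

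Hormone and nutrient genes gave smaller sets of changes. Of 6 tested ABA and dehydration genes 2 were lower, RD29B and RAB18, both dehydration markers. RAB18 (AT5G66400) had 4.06, 4.10 and 2.95 CPM in DMSO and 1.70, 2.05 and 2.03 CPM in Pakerine, a log2 fold change of -0.77 ± 0.151 (SE, adjusted p = 0.0043), and RD29B fell by 0.81. NCED3, of ABA synthesis, had a log2 fold change of 0.40 and was not called.

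Of 7 tested iron deficiency genes 3 were lower and 1 was higher (median log2 fold change -0.49), whereas only 2 of them had at least 1 CPM, of which 1 was higher and none lower (median 0.41). The lower ones were BHLH38, BHLH39 and BHLH100, related transcription factors that rise when iron is short. BHLH39 (AT3G56980) had 0.95, 1.64 and 1.69 CPM in DMSO and 0.239, 0.529 and 0.586 CPM in Pakerine, a log2 fold change of -1.0 ± 0.186 (SE, adjusted p = 0.0025). BHLH38 fell by 0.95 and BHLH100 by 0.49, the latter with adjusted p up to 0.077 without Pakerine library a. BHLH38 shares stretches with another gene, which overlaps 31.9% of it. F6'H1 (AT3G13610), of coumarin synthesis in roots, rose from 1.47, 0.623 and 1.37 CPM to 4.03, 3.83 and 3.38 CPM, by 1.41 ± 0.256 (SE, log2, adjusted p = 0.0021). Of 6 tested sulfur genes the vacuolar transporter gene SULTR4;2 fell (log2 fold change -0.81, adjusted p = 0.00038). SULTR1;1, a root uptake transporter, was higher (1.02, adjusted p = 0.020, and 0.090 and 0.096 without DMSO library b and Pakerine library c). NRT1.5, which loads nitrate into the xylem, had untested means of 33.3 and 70.0 CPM.

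Among senescence and sugar starvation genes 1 of 6 tested was lower and 1 higher, with a median log2 fold change of -0.64. Of all 24 in the table, 6 had a positive ratio of the authors' means. DIN9 (AT1G67070), a dark-induced gene, had 10.7, 13.0 and 9.41 CPM in DMSO and 5.58, 7.53 and 7.03 CPM in Pakerine, a log2 fold change of -0.66 ± 0.140 (SE, adjusted p = 0.0051). SAG29, a sugar transporter, was higher (0.87, adjusted p = 0.036), with adjusted p of up to 0.16 without DMSO library b. The dark-induced genes ASN1 (asparagine synthetase) and BCAT2 (branched-chain aminotransferase) were untested, with means of 493 and 106 CPM in DMSO and 265 and 55.0 CPM in Pakerine. NAP, a senescence regulator, had 10.1, 12.5 and 6.53 CPM against 2.06, 4.08 and 7.34 CPM, and its groups overlapped.

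The 12 genes with the lowest log2 fold changes spanned several functions. BGAL7 (AT5G20710), a β-galactosidase, had 4.00, 3.97 and 6.99 CPM in DMSO and 1.25, 1.34 and 0.965 CPM in Pakerine, a log2 fold change of -1.65 ± 0.218 (SE, adjusted p = 0.00034). PORA (AT5G54190), the protochlorophyllide oxidoreductase of dark-grown tissue, had 4.19, 4.46 and 4.00 CPM against 1.13, 1.28 and 1.21 CPM, a log2 fold change of -1.45 ± 0.173 (SE, adjusted p = 0.00021). In both the groups lay far apart relative to their spread. The sugar transporter gene SWEET10 fell by 1.28, the protein kinase gene CIPK20 by 1.25, the calmodulin-like gene CML41 by 1.22, the ribonuclease gene RNS1 by 1.19, the stress factor gene NAC019 by 1.15 and the homeobox gene HB21 by 1.12. AT4G37220, annotated as a cold acclimation protein, fell by 1.38, and CORI3, LHY and AT3G54500 complete the 12.

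AIM1, named in the study as a putative target, and MFP2, also among the proteins enriched with a pakerine analogue, are multifunctional enzymes of peroxisomal β-oxidation, and their transcripts were not tested. AIM1 (AT4G29010) had means of 248 CPM in DMSO and 229 CPM in Pakerine and MFP2 (AT3G06860) had 135 and 121 CPM, log2 ratios of -0.11 and -0.16. The other 16 untested genes of β-oxidation had ratios between -0.25 and 0.12, and the tested KAT5 and OPCL1 had log2 fold changes of -0.29 and -0.23 and were not called.

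The mutated gene CAT2 (AT4G35090) had 18.8, 25.2 and 14.5 CPM in the DMSO libraries. Its mean was 19.5 CPM in DMSO and 37.2 CPM in Pakerine, a log2 ratio of 0.92 without a test, and in all groups it is measured in the mutant only. CAT1 and CAT3 had ratios of -0.11 and -0.24. All 17 photorespiration genes had higher means with pakerine, with log2 ratios between 0.08 and 0.56 and a median of 0.30. For comparison, 931 of the 2102 untested genes of at least 100 CPM had positive ratios, with a median of -0.02. GLDP1, a glycine decarboxylase subunit, had means of 765 and 1127 CPM, GOX1, a glycolate oxidase, 823 and 1124 CPM, and the glycolate transporter gene PLGG1 227 and 313 CPM. No single-library values could be solved at these levels, so that the spread behind these ratios is unknown.

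**Figure D5:**
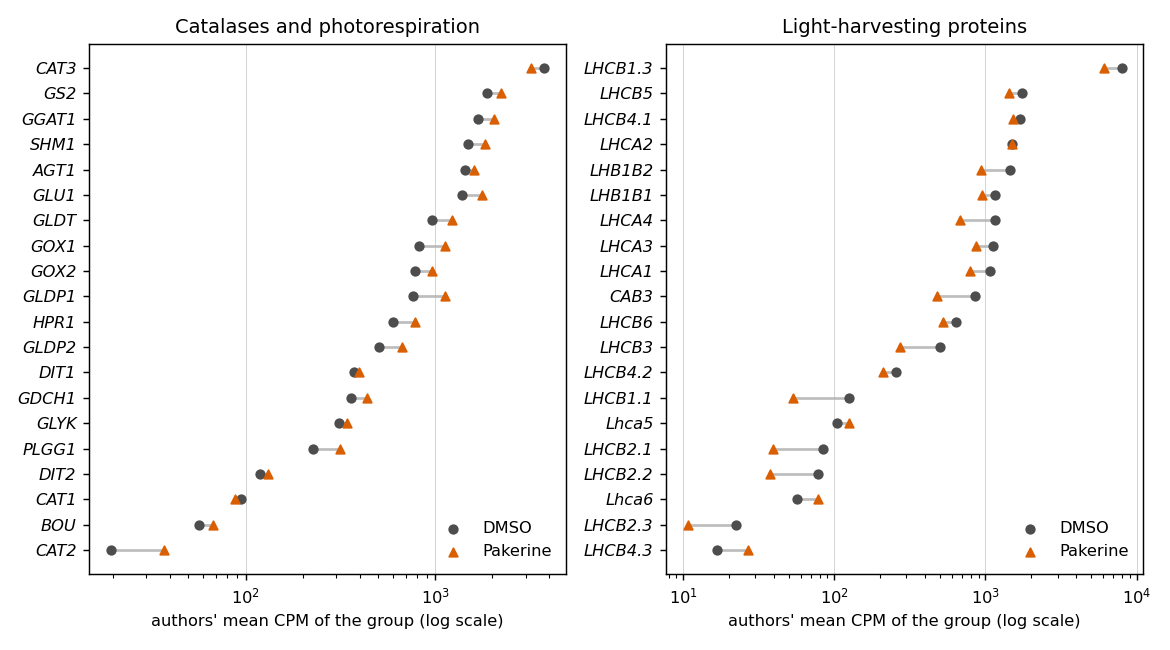
The plot of abundant leaf genes gives the authors' mean CPM of DMSO (grey circles) and Pakerine (orange triangles) on log axes, for the catalases and photorespiration genes on the left and the light-harvesting proteins on the right. All 17 photorespiration genes lie higher with pakerine, and 17 of the 20 light-harvesting genes lie lower.

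Antioxidant enzymes were untested, with 11 of 18 positive ratios and a median of 0.03. APX1, cytosolic ascorbate peroxidase, had means of 2164 and 1984 CPM. Of 5 tested polyamine genes 1 was higher, PAO1, a polyamine oxidase (log2 fold change 0.60, adjusted p = 0.018). Its adjusted p rose to 0.074 without Pakerine library b, and it shares stretches with and is overlapped by another gene. The polyamine synthesis gene ADC2 had untested means of 1245 and 963 CPM.

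Type-A response regulators are induced by cytokinin. Of 4 tested 1 was higher, ARR3 (AT1G59940), with 1.47, 0.262 and 0.948 CPM in DMSO and 2.27, 3.67 and 2.27 CPM in Pakerine, a log2 fold change of 1.3 ± 0.298 (SE, adjusted p = 0.0079). ARR5 had 5.60, 3.08 and 15.3 CPM against 9.76, 23.8 and 7.69 CPM, so that its groups overlapped widely. Counting the untested ARR4, ARR6, ARR7, ARR8 and ARR9, 8 of 9 had positive ratios. Of 10 tested cell division genes 1 was lower, the mitotic cyclin gene CYCB1;1, at 12.7, 13.5 and 17.8 CPM against 8.09, 10.4 and 6.86 CPM (log2 fold change -0.75 ± 0.149 SE, adjusted p = 0.0033). The other 9 had log2 fold changes between -0.19 and 0.17.

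Of 5 tested flavonoid genes 2 were higher. FLS1 (AT5G08640), flavonol synthase, had 5.11, 4.33 and 5.37 CPM in DMSO and 9.85, 9.27 and 8.82 CPM in Pakerine, a log2 fold change of 0.87 ± 0.134 (SE, adjusted p = 0.00080). Its regulator MYB12 rose by 1.18 (adjusted p = 0.010, and 0.055 without DMSO library b), and the chalcone synthase gene TT4 had untested means of 11.6 and 26.4 CPM. All 6 aliphatic glucosinolate genes had positive but small ratios, the tested MYB29 with a log2 fold change of 0.17. WR3, the only tested nitrate gene, had one of 0.04.

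The same compound was also given before photorespiratory stress, in libraries that share no sample with the non-stressed ones. Of 1406 genes that were higher without stress and solved in all groups, 1363 had a positive log2 fold change under stress and 926 were also called higher there. Over all 9973 genes solved in all groups, 58.8% had a positive log2 fold change under stress and 13.7% were called higher. Their median was 0.80 without stress, where they had been chosen, and 0.69 under stress. Of 211 lower genes, 162 had the same sign under stress and 47 were called lower, with medians of -0.61 and -0.23, against 41.1% of all 9973 genes with a negative sign and 2.08% called lower. The difference between the effects was tested with an interaction term, which called 3 of 9973 genes (0.0301%), whereas 876 had an unadjusted p under 0.05. These were JAZ5, AT1G49570 and BBX16, all with a lower log2 fold change without stress. None was called when DMSO library a or c or any Pakerine library was left out (0 genes), and 7 genes were without DMSO library b. IAA19 and LRX1, described above, had log2 fold changes of 1.12 and 2.28 under stress, and their interaction was not called.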

How the data were processed

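The deposited table lists 21882 genes with the mean CPM of each of 4 groups, in which the authors divided the counted reads by the library total. Per the methods and the submitters' processing notes, 75-base single-end reads passed Trim Galore 0.3.3, were aligned to TAIR10 with TopHat2 2.1.0 and counted with featureCounts of Subread 1.4.6, and the authors kept genes above 0.12 CPM in at least 3 samples. The table also holds the fold changes, p-values and false discovery rates of the authors' edgeR comparisons, which were not used.

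The 3 read counts behind each mean were solved from its decimals. All solutions were searched below 10 CPM, and from 10 to 100 CPM those with each library within a factor of 2 of the mean. A gene with a library further out is missed there, or enters with wrong reads where 1 false solution falls inside these limits. A gene was used when 1 solution remained in both groups. Of the untested genes, 4476 had, where several solutions remained, 1 of clearly smaller spread than the rest. The other 5367 had, in at least 1 group, several solutions without such a choice, no solution, or a mean of at least 100 CPM, where none was searched. CPM of the recovered reads were scaled by TMM factors. Between groups these came from the deposited means of all genes, and within a group from the genes solved in it. The scaled CPM were transformed as log2(CPM + 0.5) and fitted with limma 3.58.1 with a trend over all 12 libraries where solved, which share one estimate of the spread. The script was tested on simulated data. Gene IDs matched the RefSeq annotation of TAIR10.1 for 21731 genes. Whether the library kit marked strand is not given in the sources used here.

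The members and the 32 gene lists were chosen with earlier results of these data known. Named were up to 4 genes per list with the smallest adjusted p (both directions where both were called), the 12 highest and 12 lowest genes at adjusted p of at most 0.01 and at least 1 CPM, CAT2, AIM1 and MFP2. Other list members named were chosen after their values were seen, and some genes are not reported here. Alternatives were no TMM factors, pseudocounts of 0.1 and 2 CPM, at least 1 CPM, voom, the 6 libraries alone, each library left out and 3 added after seeing the data. R 4.3.3 and Python 3.11.15 were used.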

Additional observations from a re-analysis of the deposited data

Results flagged for a closer look

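JAZ5 (AT1G17380), a JA-induced repressor of JA signalling, was singled out because the effect of pakerine without stress differed from that under stress by the interaction term of limma. Its authors' means were 0.773 CPM in DMSO and 0.413 CPM in Pakerine, and 0.896 CPM in Stress and 2.64 CPM in Stress + Pakerine. The log2 fold change was -0.47 without stress (adjusted p = 0.079) and 1.13 under stress (adjusted p = 0.00047), and the difference was -1.60 ± 0.247 (SE, adjusted p = 0.029 over 9973 genes). All 3 Pakerine libraries lay below all 3 DMSO libraries without stress. The call depended on the fit, since 0 genes passed the interaction test with voom weights and between 0 and 7 when any one of the 12 libraries was left out, with 0 without DMSO library a or c or any Pakerine library. Another 2 genes passed it, AT1G49570 and BBX16, which are no list members.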

How the results depend on the processing

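With another setting, between 1230 and 2240 genes were called and between 64.3% and 96.1% of the 1849 were among them. Leaving out each library in turn gave 1230 to 1565 called genes, 188 to 269 lower ones, 200 to 412 higher ones at the stricter threshold and 0 to 7 genes of the interaction (7 without DMSO library b). A pseudocount of 2 CPM left 112 genes higher and 4 lower at the stricter threshold, and one of 0.1 CPM made 52 lower there. TMM factors over the solved genes gave 622 lower genes, 42 of them at the stricter threshold, and turned the list medians of auxin conjugation and nitrate uptake to -0.05. Including the solution of smallest spread for the 4476 genes where it stood apart, which understates the error, gave 543 lower genes, and voom gave 0 genes of the interaction. The cause of these shifts was not tested. Of 91 called named genes, 76 were called in every setting that gave a value, 15 were lost in at least 1 fit without a library and none changed sign. Among genes not called, the sign turned when libraries were left out for DAO2 (log2 fold change from -0.035 to 0.226), GH3.9 (from -0.167 to 0.098), AFB4 (from -0.028 to 0.039), GSTF14 (from -0.023 to 0.361), ARR15 (from -0.119 to 0.534) and SPMS (from -0.059 to 0.076). With TMM factors over the solved genes it turned for SPMS (-0.065) and WR3 (-0.048). No paired analysis was possible because the recovered libraries carry no replicate numbers. Of genes between 10 and 30 CPM on average over both groups 53.1% could be tested and of genes from 30 CPM none (0). The counts thus describe mainly genes of low level. For 2066 tested genes the reads of Stress, of Stress + Pakerine or of both could not be solved, and those libraries are missing from their fit.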

Other observations

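Families that share a name in the annotation were counted after their values had been seen, and 12.7% of all tested genes were higher. Of 58 tested small auxin up RNA (SAUR) genes, early auxin genes of cell growth, 15 were higher and 1 lower, with a median log2 fold change of 0.37. Among wall genes 14 of 22 tested extensins (median 0.99), 11 of 17 expansins (0.68) and 6 of 13 xyloglucan endotransglucosylases (0.52) were higher and none was lower. Among class III peroxidases 16 of 39 were higher and 1 lower (0.52), among mannose-binding or jacalin lectins 8 of 23 and 1 (0.43), and among cytochrome P450 genes 36 of 110 and 1 (0.28). Of 86 tested ribosomal protein genes none was higher and 2 were lower (-0.06), and of 62 heat shock genes 1 was higher and 1 lower (-0.06).

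Light-harvesting chlorophyll proteins were nearly all too abundant to be tested. Of 20 genes 17 had lower means with pakerine, with a median log2 ratio of -0.38 and a range from -1.22 to 0.68. LHCB1.1 had means of 126 CPM in DMSO and 53.6 CPM in Pakerine, and LHCB2.1 had 84.1 and 39.5 CPM. The only tested member, LHCB4.3, was higher, by 0.66 on the log2 scale. Several members are near-identical copies between which reads could be split.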
